A study of Rattus norvegicus with 6 samples.

Results

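The cells described here were selected by a gate on single-cell RNA profiles of rat brain after pontine infarction, and the working name of the population was interferon-responding macrophages. The gate kept infarction cells with at least 3 of the 5 interferon-induced transcripts Mx1, Ifit2, Ifit3, Cxcl10 and Rsad2, each at 1 or more unique molecular identifiers (UMIs, one per captured RNA molecule). It also asked for the phagocyte adaptors Tyrobp and Fcer1g, for a sum of C1qa, C1qb and C1qc under 40 and of S100a8 and S100a9 under 200 per 10000 UMIs, and for no UMI of Cd3d, Cd3e or Cd3g. It selected 558 cells, called members, with 194 in infarction 1, 99 in infarction 2 and 265 in infarction 3, out of 38685 quality-passing cells in the series. The 5 interferon genes, the C1q genes, S100a8, S100a9 and the T cell receptor genes therefore chose the members, and their levels describe that choice.

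The series holds 6 droplet libraries of 3′ RNA ends, 3 from sham rats and 3 from rats given a pontine infarction, a stroke in the brainstem where motor fibres descend. All are brain samples of the Sprague Dawley strain, and the age on the labels is postnatal day 21. No transgene, drug or other agent is named for either group, the time after infarction is not given in the sources used here, and the labels do not say how animals were shared out among the libraries. P-values therefore measure the spread between libraries, which may be technical.

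Type I interferons bind the receptor pair Ifnar1 and Ifnar2 and act through the kinases Jak1 and Tyk2 on transcription factors that bind interferon-stimulated response elements in promoters. The genes switched on include the IFIT family, which binds foreign RNA, the dynamin-like GTPases Mx1 and Mx2, viperin (Rsad2), the ubiquitin-like protein Isg15, and Cxcl10 and Cxcl11, ligands of the T cell receptor Cxcr3. In injured brain such genes are known in microglia, in macrophages that enter from blood and in neutrophils.

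The label was met only in part. All 10 macrophage markers on a fixed list had UMIs in the members. Their summed level was 14464, 14542 and 11913 counts per 1000000 UMIs (CPM) in infarction 1, 2 and 3. The sum includes Lyz2, which was also at 6319 CPM in a neutrophil-like cluster of members described below. Cd68 was at 24.7 CPM in that cluster, so the sum alone does not mark macrophages. Of the single members, 391 (70.1%) held a UMI of Cd68, a lysosomal macrophage glycoprotein, 97 of 194, 58 of 99 and 236 of 265 by library. However, 157 members (28.1%) held UMIs of both G0s2 and Il1r2, 2 neutrophil transcripts, with 51.0%, 38.4% and 7.55% by library. The population was thus a mixture whose make-up differed between libraries, and it is named here by its gate as interferon-gated C1q-low phagocytes.

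Quality-passing cells numbered 5977 to 7401 per library, from 56416475 to 69924334 UMIs in all, with median depths of 7334 to 9630.0 UMIs. Pairs of libraries shared 8 to 21 cell barcodes. Members had a median of 6203, 7172 and 13041 UMIs in infarction 1, 2 and 3, and their summed counts were 1725821, 841355 and 3964613 UMIs. A Scrublet doublet score above 0.25 marked 7, 2 and 4 members. In bulk sums of cells, fewer cells of a type and less RNA per cell cannot be told apart.

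The gate was applied unchanged to the sham libraries, which had not been used to choose the members. It passed 2, 3 and 2 sham cells, 0.0332%, 0.0463% and 0.0297% of quality-passing cells, against 3.25%, 1.34% and 4.37% in infarction 1, 2 and 3. The exact 95% binomial intervals, which cover counting error only, were 2.81 to 3.73%, 1.09 to 1.63% and 3.87 to 4.91% in infarction. Every infarction library lay above every sham library, and infarction 2 lay below the others. The mean share was 2.98% ± 1.53 after infarction and 0.0364% ± 0.00873 in sham (SD, n = 3 each), with an exact two-sided permutation p of 0.1, the smallest that 3 against 3 libraries allow. EdgeR's quasi-likelihood test on the numbers of cells gave a log2 fold of 6.28 ± 0.76 (SE), with a Benjamini-Hochberg adjusted p of 3.29e-09 over 10 classes. The test shares its estimate of spread between these classes, which divide the same cells of the same 6 libraries. The size of this p-value therefore rests on more than the 3 libraries per group. Cells with at least 2000 UMIs were also thinned to 2000, and shallower cells were left out. Those left out included 26, 29 and 14 members of infarction 1, 2 and 3. The shares were then 1.17% ± 0.696 after infarction and 0.0114% ± 0.00987 in sham. The edgeR log2 fold was 6.43, with an adjusted p of 4.24e-04 over 9 classes.

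**Figure D1:**
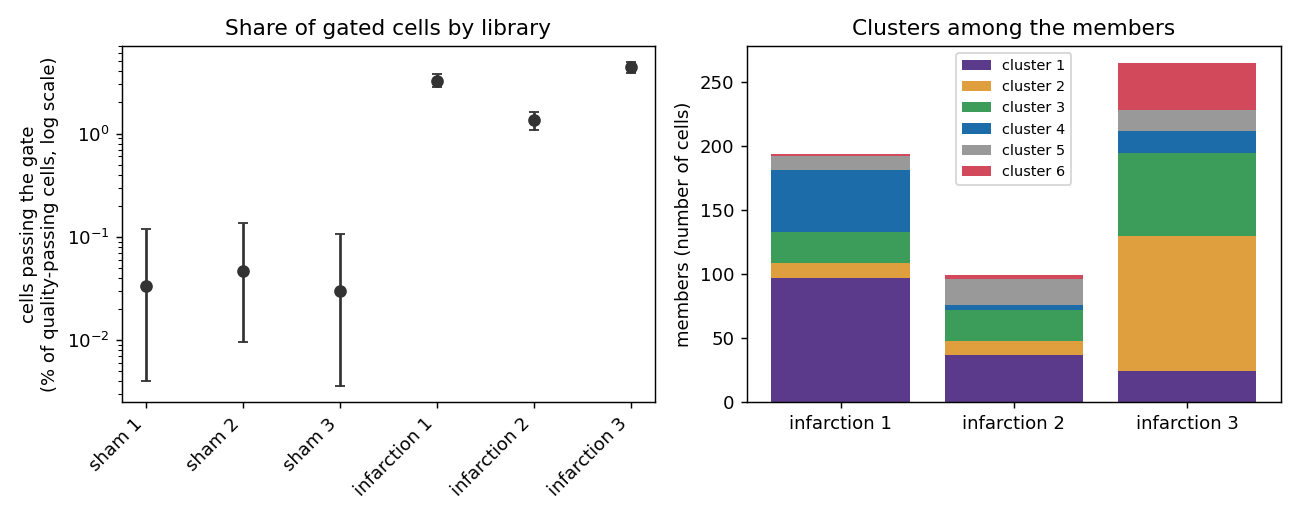
Left, share of quality-passing cells that pass the gate in each library (percent, log scale), with exact 95% binomial intervals. Right, number of members in each infarction library, split into 6 clusters of the members. The infarction shares lie between 1.34% and 4.37% and the sham shares between 0.0297% and 0.0463%. Cluster 1 holds 97 of 194 members in infarction 1 and 24 of 265 in infarction 3.

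The groups also differed in how many C1q-low phagocytes they held. Before the interferon genes are asked for, the gate held 59, 201 and 150 sham cells and 4212, 4662 and 3903 infarction cells. Within it, members made up 3.39%, 1.49% and 1.33% of cells in sham and 4.61%, 2.12% and 6.79% after infarction, so that the groups overlapped. The means were 2.07% ± 1.14 and 4.51% ± 2.33 (SD, n = 3), with an exact permutation p of 0.200 and an edgeR log2 fold of 1.32 ± 0.85 (adjusted p = 0.208). With cells thinned to 2000 UMIs the means were 1.73% ± 1.56 in sham and 1.73% ± 1.01 after infarction, over 33 to 103 sham cells per library. These within-gate shares were added after seeing the data, and the 7 sham cells that passed the gate held 7 to 50 UMIs of the 5 genes.

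Other cells co-expressed the 5 genes too. Among phagocytes on the other side of the C1q limit, 59, 39 and 60 infarction cells had at least 3 of the genes, 6.87%, 2.43% and 6.29%. In sham the same share was 2.38%, 0.570% and 0.919%, below every infarction library. The exact permutation p was 0.1, and 0.133 adjusted over the 4 shares compared. The edgeR log2 fold was 2.09 ± 0.71 with an adjusted p of 0.0395, which became 1.77 with an adjusted p of 0.210 after thinning to 2000 UMIs. Cells with a Cd3 transcript reached 1.53% after infarction and 0.554% in sham, and cells lacking Tyrobp or Fcer1g reached 0.857% and 0.392%, where the groups overlapped. Their edgeR log2 folds were 1.37 (adjusted p = 0.249) and 1.21 (adjusted p = 0.208). Phagocytes above the S100 limit went the other way, with 4.35% after infarction and 13.6% in sham (log2 fold -1.38, adjusted p = 0.208). There the groups overlapped and 5 of 13 cells passed in sham 1. Thinning to 2000 UMIs turned this order, with 3.59% after infarction and 1.39% in sham (log2 fold 0.76). It also turned that of Cd3-positive cells, 0.337% and 0.412%. Cells lacking Tyrobp or Fcer1g kept theirs, 0.202% and 0.0202%.

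The threshold of 3 genes cut a continuous range. Of the infarction cells inside the rest of the gate, 7249 had none of the 5 genes, 3811 had 1 and 1159 had 2. Members with 3, 4 and 5 genes numbered 360, 138 and 60. The median depth of these 6 classes was 11493, 3157, 4076, 9601, 10996 and 13260.5 UMIs. Depth thus rose at each step from 1 to 5 genes, whereas cells with none were deeper than those with 1 to 4. At the C1q limit, 6 members lay between 30 and 40 C1q UMIs per 10000 and 3 excluded cells between 40 and 50. At the S100 limit, 12 members lay between 150 and 200 and 6 excluded cells between 200 and 250.

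Ifit3 was the transcript found most often among the 5, in 536 members (96.1%), followed by Ifit2 in 497 (89.1%) and Mx1 in 392 (70.3%). Cxcl10 was found in 260 (46.6%) and Rsad2 in 247 (44.3%). The most frequent combination was Mx1, Ifit2 and Ifit3 alone, in 152 members, and the next was Ifit2, Ifit3 and Rsad2 alone, in 92. Free RNA adds UMIs to cells that do not make a transcript. In the 1355 infarction cells lacking Tyrobp or Fcer1g, with a median of 1626 UMIs against 10554 in the members, the shares were 9.30% for Ifit3, 7.45% for Ifit2, 3.99% for Mx1, 3.99% for Cxcl10 and 2.95% for Rsad2.

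As the gate required, all 5 genes stood far above the 12219 cells that had 2 or fewer. Cxcl10 was at 549, 704 and 1068 CPM in the members of infarction 1, 2 and 3, against 10.0, 5.88 and 7.38 in the rest of the gate. The chemokine was thus the gene with the widest gap in absolute terms in infarction 3. Ifit2 was at 457, 321 and 444, against 15.9, 8.74 and 12. Mx1 was at 432, 506 and 712, against 18.4, 26.1 and 43.2. The antiviral GTPase Mx1 had the highest level in the rest of the gate among these 3 genes, in every library. Rsad2 was at 165, 114 and 121, against 2.03, 0.670 and 0.665. Ifit3 was at 2539.7, 1401 and 907, against 339, 119 and 112. Infarction 1 was the highest library for Ifit3 and the lowest for Mx1 and Cxcl10, and infarction 3 the reverse.

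Members were 558 of the 19445 quality-passing infarction cells but held a large part of some transcripts. They held 59.0% of all Rsad2 UMIs in infarction cells, 52.7% of Cxcl10, 44.9% of Ifit2, 39.5% of Mx1 and 19.7% of Ifit3. Of genes outside the gate, they held 86.3% of the UMIs of Cxcl11 and 47.0% of those of Cmpk2, a mitochondrial nucleotide kinase next to Rsad2 in many genomes. Within the members the chemokine transcripts came from few cells. Of 5776 Cxcl10 UMIs, 50% were in 16 cells, and 1 cell held 345. Cxcl11 was detected in 78 members, 7 of which held 50% of its UMIs. For Ifit3 that number was 77 cells, for Mx1 63 and for Isg15 92.

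**Figure D2:**
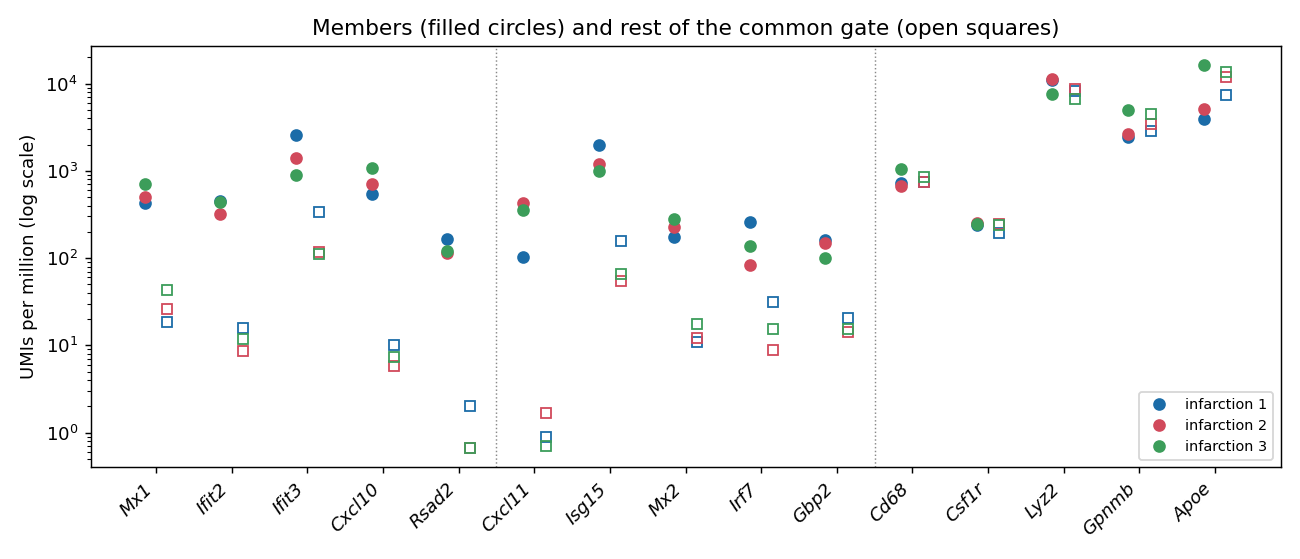
Level of 15 genes in CPM (log scale) in the members (filled circles) and in the remaining cells of the gate (open squares), coloured by infarction library. The first 5 genes are those of the gate, the next 5 are other interferon-induced genes, and the last 5 are macrophage genes. The interferon genes are separated in every library, and the macrophage genes lie closer together, with Apoe lower in the members of infarction 1 and 2.

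Promoters of these genes were examined for the core of the interferon-stimulated response element. RefSeq promoters of build GRCr8, from 250 bases before to 50 after the start of transcription, were found for 4 of the 5 genes, Ifit2 being the exception. The core was searched as GAAANNGAAA on both strands. It was present in 3 of the 4 promoters, and the windows around it are shown because they carry the sequence that these genes share, with the core in capitals (its reverse complement where it lies on the opposite strand). They lie at chr14:15988816-15988857 (plus strand, Cxcl10), chr1:241527257-241527316 (plus strand, Ifit3) and chr6:48788233-48788292 (minus strand, Rsad2), with the first capital 243, 44 and 147 bases before the start.
Cxcl10: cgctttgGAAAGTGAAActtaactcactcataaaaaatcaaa
Ifit3: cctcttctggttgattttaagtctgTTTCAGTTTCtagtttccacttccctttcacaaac
Rsad2: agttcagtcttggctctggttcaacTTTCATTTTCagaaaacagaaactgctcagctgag
The windows of 3 further genes that are described with the comparison against C1q-high cells or lipid-handling cells are at chr1:205800058-205800117 (minus strand, Irf7, an amplifier of interferon transcription), chr1:205541768-205541827 (minus strand, Ifitm3, a membrane protein that blocks viral entry) and chr1:142239942-142240001 (plus strand, Isg20, an RNA exonuclease).
Irf7: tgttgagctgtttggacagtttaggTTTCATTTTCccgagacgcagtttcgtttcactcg
Ifitm3: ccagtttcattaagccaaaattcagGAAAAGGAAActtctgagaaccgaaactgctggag
Isg20: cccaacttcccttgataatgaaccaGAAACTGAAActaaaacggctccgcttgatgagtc
The further genes shown were picked because their promoters held the core, as did that of Gbp2. The promoters of Mx1, Cxcl11, Cmpk2, Oasl, Stat2 and Irf9 did not hold these letters in the window. Ifit1bl had a promoter with the core and another without it. Across all 33469 RefSeq promoters the core was present in 3.92%, and among the 6814 genes with a promoter that were tested against lipid-handling macrophages in 3.33%. It was present in 24 of 39 antiviral effector genes (61.5%), 6 of 8 interferon-induced GTPases (75.0%) and 9 of 20 genes of MHC class I presentation. None of 13 lipid-handling genes held it, nor did any of 13 chemokine genes on a list that leaves out Cxcl10, whose promoter does hold it. The gamma-activated site core TTCNNNGAA, which can overlap the first motif, was present in 8.87% of all promoters, in 9 of 39 antiviral effectors and in 5 of 13 chemokine genes (38.5%), with 2 copies in the Cxcl11 promoter. A match is a string of letters and not a measured binding site.

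Interferon-induced genes that the gate did not use accompanied the 5. Of 49 antiviral effectors with a UMI, 44 were higher in the members than in the rest of the gate in all 3 libraries, with a median log2 difference of 2.11. The same held for 7 of 8 GTPases (median 2.20), 9 of 15 nucleic acid sensors (0.75) and 18 of 21 MHC class I genes (0.58), against 9.93% of all 17010 genes with a UMI and a median of -0.02. Of 18 chemokines 3 were higher in all 3 libraries, and of 14 MHC class II genes none was. The gate drew this contrast, so no test was made.

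Isg15, a ubiquitin-like modifier, was at 1984, 1212 and 983 CPM in the members and at a mean of 92.5 in the rest. Mx2 was at 176, 229 and 282 against 13.6, and Irf7 at 256, 83.2 and 136 against 18.7. Cxcl11 was at 104, 424 and 352 against 1.09. Gbp2, a guanylate-binding protein of cell-autonomous defence, was at 161, 149.8 and 101 against 16.7. Members lay above the rest for these 5 genes in every library. The receptor and signalling genes as a list did not shift, with 7 of 18 higher in all 3 libraries and a median log2 difference of 0.07.

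Several of these genes climbed with the number of gate genes detected, also below the threshold. Cxcl11 rose from a mean of 0.375 CPM in cells with none of the 5 genes to 1.26, 9.33, 23.7, 388 and 2103 in cells with 1 to 5. The last mean is over 197, 4539 and 1575 in infarction 1, 2 and 3, where 11, 3 and 46 cells had all 5 genes. In infarction 1 Cxcl11 fell from 328 with 4 genes to 197 with 5. Mx2 went through 2.97, 27.4, 68.6, 152, 296 and 549, and Gbp2 through 9.27, 26.5, 53.8, 97.3, 187 and 279. Isg15 went through 16.8, 162, 557, 1122, 1897 and 1890.0 and was level at the top. Gpnmb, a lysosomal glycoprotein of lipid-laden macrophages, stayed between 3352 and 3658 in all 6 classes. The neutrophil transcript G0s2 was at 358 with none of the genes, between 2268 and 3547 with 1 to 4, and at 39.5 with all 5. These means are over 3 libraries and describe how the genes travel together, since cells were sorted by genes of the same response.

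**Figure D3:**
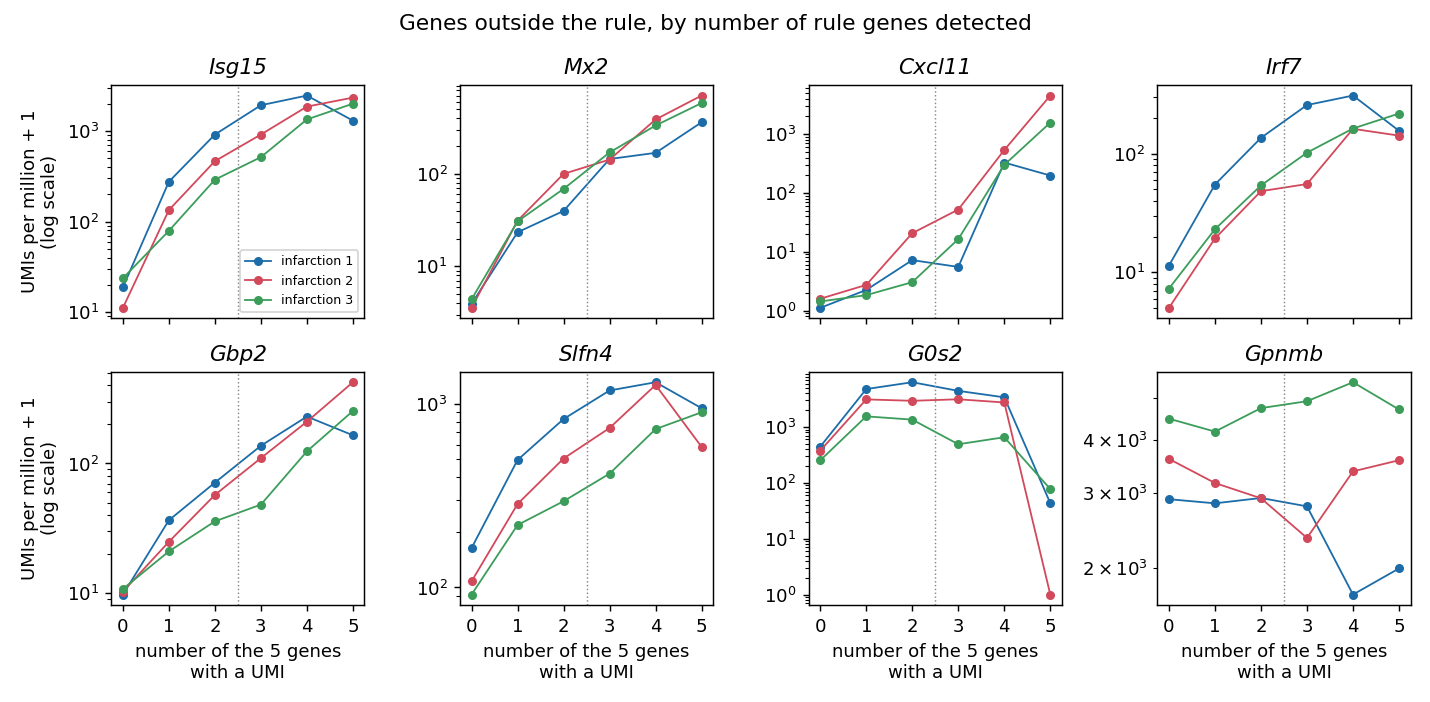
Level (CPM plus 1, log scale) of 8 genes that the gate did not use, in infarction cells of the gate sorted by how many of the 5 interferon genes they held, with 1 line per library. The dotted line marks the threshold of 3. Library means of Isg15, Mx2, Cxcl11, Irf7, Gbp2 and Slfn4 climb from none to 4 genes. From 4 to 5 genes the mean falls for Irf7 (210.5 to 171) and Slfn4 (1102 to 809), and Isg15 is level. In infarction 1 all of these but Mx2 are lower with 5 genes than with 4. G0s2 drops in cells with all 5 genes, and Gpnmb is nearly level.

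Macrophage genes differed from the rest of the gate in both directions and by less than the interferon genes. Of the 10 macrophage markers 5 were higher in members in all 3 libraries, with a median log2 difference of 0.10 over the list. Cd163 and Mertk were lower in all 3, with mean log2 differences of -1.01 and -0.05. The sum of the 10 in the rest was 11206, 11761 and 10173 CPM, below the members in each library. Cd68 had a mean of 813 CPM in members and 778 in the rest, and Csf1r, the receptor for macrophage colony-stimulating factor, 244 and 226. Apoe, the main lipid carrier protein of brain phagocytes, was at 3879.9, 5173 and 16269.7 in the members of infarction 1, 2 and 3 against 7342, 11893 and 13523 in the rest. Members were thus lower in infarction 1 and 2 and higher in infarction 3. The microglial transcripts Tmem119 and P2ry12 had means of 5.01 and 2.10 in the members, and Siglech was at 0.

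Clustering of the members alone gave 6 clusters, which are described by their leading genes. Cluster 1 held 158 members, 97, 37 and 24 in infarction 1, 2 and 3, and is called neutrophil-like from its markers: Il1r2, G0s2 and Camp were among its 10 leading genes, with Car4, Ccl6 and Lrg1. Its cells had a median depth of 2143 UMIs. Ifit3 there was at 14497, 13111 and 17855 CPM and Isg15 at 9925 over the 3 libraries, and the cluster held 58.3% of the members' Ifit3 UMIs, 45.8% of Rsad2 and 68.3% of Ifit1bl. Mx1 was present in 12% of its cells, which held 1% of the members' Mx1 UMIs, and Cd68 was at 24.7 CPM. The same 158 cells formed one cluster at resolutions 0.3, 0.6 and 1.0.

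The other 5 clusters carried macrophage or monocyte genes. Cluster 2 (129 cells, 106 of them in infarction 3) was led by Pmp22, the transferrin receptor Tfrc and Apoe, and by Gas6, a bridging ligand for the uptake of dead cells. Cluster 3 (24, 24 and 65 cells) was led by the MHC class II genes RT1-Db1, RT1-Ba, RT1-Bb and RT1-Da with Cd74, the class II invariant chain, 90.6% of whose member UMIs it held. Cluster 4 (48, 4 and 17 cells) was led by the metallothionein Mt1, Ccl24, Slamf6, Pf4 and F13a1. Cluster 5 (11, 20 and 16 cells) was led by Mal and Fcnb, a ficolin of classical monocytes. Clusters 2 to 5 had median depths of 8703 to 15979 UMIs, and Mx1 was detected in 87.2% to 95.3% of their cells.

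Cluster 6 was the smallest, and over the 3 libraries summed it had the highest levels of Cxcl10, Cxcl11 and Ccl12. Other chemokines were higher elsewhere, such as Ccl2 at 22297 CPM in cluster 1 and 10609.9 in cluster 6. Cluster 6 held 42 cells, 2, 3 and 37 by library, with a median of 128 UMIs of the 5 gate genes per cell against 36 in cluster 1 and 14 in cluster 2. Cxcl10 was at 2787, 683 and 6627 CPM in its cells of infarction 1, 2 and 3, and the cluster held 51.6% of the members' Cxcl10 UMIs and 56.4% of those of Cxcl11. It also held 47.2% of the UMIs of Ccl12, a monocyte-attracting chemokine. In infarction 2 Cxcl10 was higher in cluster 3 (1237) and cluster 1 (1152), and Cxcl11 was at 322 in cluster 6 against 962 in cluster 3. The cluster 3 levels there rested largely on 1 cell per gene, with 242 of 409 Cxcl10 UMIs and 222 of 318 Cxcl11 UMIs. Since 37 of its cells came from infarction 3, its levels describe mainly that library. The 42 cells stayed together at resolution 1.0 and were part of a cluster of 91 cells at resolution 0.3.

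**Figure D4:**
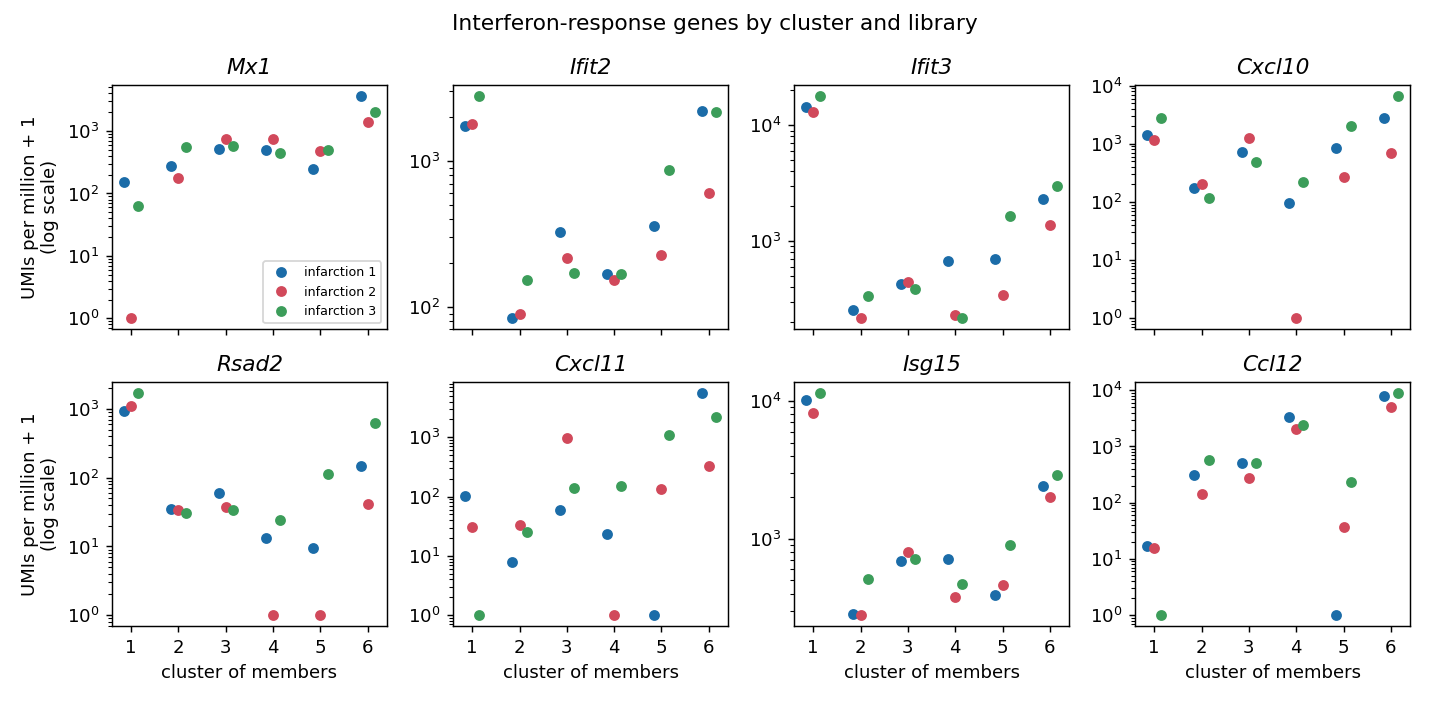
Level (CPM plus 1, log scale) of 8 interferon-induced genes in each of the 6 clusters of members, with 1 point per infarction library. Ifit3, Rsad2 and Isg15 are highest in the neutrophil-like cluster 1, where Mx1 is lowest. In infarction 1 and 3 Cxcl10, Cxcl11 and Ccl12 are highest in cluster 6, which holds 2, 3 and 37 cells. In infarction 2 Cxcl10 and Cxcl11 are highest in cluster 3, where 1 cell holds most UMIs of each gene.

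The same contrast between Ifit3 and Mx1 was found when all cells of the gate, members included, were split by neutrophil transcripts. Among cells with both G0s2 and Il1r2, Ifit3 was detected in 87.2%, 76.0% and 81.0% in infarction 1, 2 and 3, against 18.3%, 9.42% and 17.3% of the other cells. For Mx1 the order was opposite, with 3.38%, 1.68% and 3.00% against 13.1%, 9.92% and 23.7%. Median depths of these classes were 2290.5, 1662 and 1978 UMIs against 13004, 10547 and 12718, so Ifit3 was found more often in the shallower cells. Members were 6.56%, 4.26% and 3.33% of the cells with both transcripts and 3.52%, 1.62% and 7.42% of the others. Infarction 3 was thus reversed relative to infarction 1 and 2.

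Markers of other cell types were summed over fixed lists. Neutrophil markers summed to 4540.4, 3459.9 and 618 CPM in members, with 10 of 13 present and Ngp, Cxcr1 and Hdc at 0, and to 2651, 1333 and 973 in the rest of the gate. Microglial markers summed to 143, 319 and 129.6, with 10 of 11 measured present and Siglech at 0, and to 91.0, 95 and 130.2 in the rest, and 5 of the 11 were higher in members in all 3 libraries (median log2 difference 0.85). Markers of T or NK cells summed to 233, 212 and 587, with 10 of 14 present and Cd5, Gzmb, Gzma and Prf1 at 0, and to 273, 279.9 and 439.9 in the rest. Endothelial markers summed to 48.7, 165 and 48.7 against 28.8, 33.3 and 51.8 in the rest. Mural markers summed to 8.11, 40.4 and 42.6 against 3.16, 3.51 and 8.83, higher in members in every library. Astrocyte markers summed to 22, 160.5 and 66.3 against 24.5, 69.8 and 55.8. Of 6 measured B or plasma cell markers 1 had a UMI. The part of the neutrophil markers in each comparison was measured by leaving out cluster 1, and that of the other lists was not tested.

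Few ligand transcripts were found. Of 14 interferon and related ligands on a fixed list, 12 were in the files. Ifnb1, the first type I interferon made by most cells, had 56 UMIs in 31 infarction cells, 3 of them in members, and 6 UMIs in 5 sham cells. Ifng, the type II interferon of T and NK cells, had 13 UMIs in 10 infarction cells, none in members, and 14 in sham. Ifnk had 5 UMIs in each group, and Il27 had 10 after infarction and 11 in sham. Ifnb1 was thus the one ligand with more UMIs after infarction, and the other 8 ligands had 0 in 19445 infarction cells, a count that allows up to 3.

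The members were compared with the 158 interferon-gated phagocytes on the other side of the C1q limit, 59, 39 and 60 per library. Microglial markers summed to 893, 1118 and 1504 CPM in these C1q-high cells, neutrophil markers to 901, 615 and 452, and their median depth was 13748 UMIs. Both populations were chosen by the same 5 genes in the same libraries, and other interferon genes were not used. The gate asked for detection, so a shallower cell needed a higher level per UMI to pass. The members' median depth was 10554 UMIs. Levels of other genes of the same response are thus partly tied to the choice. The C1q limit is part of the gate, and genes that go with C1q in resident brain phagocytes were set apart with it. EdgeR's quasi-likelihood test with the library as a block called 1577 of 6357 genes (24.8%), 800 higher in the members (12.6%) and 777 lower (12.2%), at a Benjamini-Hochberg adjusted p under 0.05. Without infarction 1 these were 409 and 363. Among the genes of the gate, as a description in plain CPM, the C1q-high cells held Ifit3 at 371, 224 and 363, Mx1 at 289, 305 and 315 and Cxcl10 at 376, 683 and 866, so that Ifit3 lay furthest below the members. Levels in the comparisons by edgeR are CPM after its scaling of library totals, so they differ slightly from the plain CPM above.

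Antiviral effectors were higher in the C1q-low members. Of 41 tested, 21 rose and none fell, with a median log2 fold of 0.81 against -0.02 for all genes. Without the neutrophil-like cluster 13 rose (median 0.48), and without infarction 1 13 of 40 rose (0.78). With cells of at least 3000 UMIs in both populations 16 rose (0.53). Ifitm3 was at 201, 392 and 285 CPM in the members and at 44.4, 71.4 and 60.6 in the C1q-high cells, with no overlap (log2 fold 2.28 ± 0.17, SE, adjusted p = 2.70e-06). Isg15 was at 2289.8, 1303 and 1070.2 against 409, 402 and 357 (1.93 ± 0.19, adjusted p = 4.97e-05). Its fold was 0.94 without the neutrophil-like cluster. For Oas1a, which makes the second messenger of RNase L, the fold was 1.68 with it and 1.07 without. Ifit1bl lost its call without that cluster, with a fold of 3.11 falling to 0.99 (adjusted p = 0.0787).

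Other layers of the pathway had few calls per list, beside 12.6% higher and 12.2% lower among all genes tested. Whether any of these lists departed from those shares was not tested. Irf7 was at 295, 89.5 and 149 CPM in the members against 52.7, 24.4 and 41.9, again without overlap (log2 fold 2.11 ± 0.21, adjusted p = 1.98e-05). Of 17 receptor and signalling genes 3 rose and 1 fell, and of 10 sensors 2 rose and 2 fell. Myd88, the adaptor of most Toll-like receptors, was higher by 1.11 and the cytosolic RNA sensor Dhx58 by 0.96, whereas Tlr3, the endosomal receptor for double-stranded RNA, was lower by a log2 fold of -1.49. Of 7 GTPases 2 rose and 2 fell. Usp18, the protease that removes Isg15 and damps the receptor, was higher by 1.44. Of 17 MHC class I genes 3 rose and 1 fell, with RT1-S3 at 0.88. Without infarction 1 the numbers that rose and fell were 1 and 0 of the signalling genes, 2 and 1 of the sensors, 1 and 1 of the GTPases, and 1 and 0 of the class I genes. Among all 6104 genes tested in that fit, 409 rose and 363 fell.

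Chemokine transcripts differed in both directions. Cxcl11 was at 120.4, 456 and 383 CPM in the members and 4.94, 50.5 and 50.7 in the C1q-high cells (log2 fold 3.33 ± 0.26, adjusted p = 2.09e-05). Ccl2, the main monocyte attractant, was at 10958, 4383 and 3968 against 3250.2, 1091 and 1131 (1.86). Ccl4, an inflammatory CC chemokine, was at 1531, 358 and 397 against 9520.1, 4298 and 5065 (-3.30). Each of these 3 was apart in every library. Without the library block the adjusted p-values were 0.0786, 0.141 and 0.0587. For Ccl24, an eosinophil attractant, 259 UMIs were counted in the members and 1 in the C1q-high cells. Cxcr4, the receptor for Cxcl12, was higher by 2.61 and Cx3cr1, the receptor of resident microglia for fractalkine, lower by a log2 fold of -1.71.

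Genes of recruited monocytes and macrophages were higher in the members and genes of resident phagocytes lower, a contrast that the C1q limit is part of. Against the rest of the C1q-low gate, the median log2 difference was 0.06 for monocyte and -0.18 for lipid-handling genes. Vcan and Arg1, named below, had mean differences of -0.28 and -0.64 there. Of 11 monocyte genes 7 rose and none fell, including Ms4a6a (1.46) and the proteoglycan Vcan (4.29, at 947, 566 and 481 CPM against 26.3, 48.7 and 28.6). Of 18 lipid-handling genes 10 rose and 2 fell, including Gpnmb (2.03), the lipid droplet coat protein Plin2 (1.98) and the lectin Lgals3 (1.96). Arg1, arginase of wound macrophages, was at 471, 72.8 and 211 CPM against 17.3, 1.74 and 18.7 (4.27 ± 0.29, adjusted p = 3.57e-06). Of 8 microglial markers 4 fell, and Cst3, a protease inhibitor abundant in microglia, was at 1035, 1719 and 814 against 9604, 16553 and 18217 (-3.65 ± 0.32, adjusted p = 0.00143). Cd68 was higher by 1.55 and Csf1r lower by a log2 fold of -1.67.

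Proliferation transcripts were lower and glycolysis transcripts higher than in the C1q-high cells. Members did not differ in this way from the rest of the C1q-low gate. There the median log2 differences were 0.35 for proliferation and -0.06 for glycolysis and hypoxia, with 3 of 23 and 1 of 20 genes higher in all 3 libraries. Of 21 proliferation genes 14 fell and none rose, with a median log2 fold of -2.08. The replication helicase subunit Mcm5 was at 14.0, 10.2 and 9.06 CPM in the members and 74.1, 67.9 and 69.4 in the C1q-high cells (-2.69 ± 0.24, adjusted p = 1.11e-05). Of 17 genes of glycolysis and hypoxia 12 rose and none fell (median 0.92), including Vegfa (2.60), lactate dehydrogenase Ldha (1.30) and Hif1a (1.12), and 7 rose without infarction 1. Of 7 costimulation and checkpoint genes 1 rose and 5 fell, with Cd40 at -1.33, Tnfsf9 at -2.36 and Havcr2 at -1.54. The gene that rose, Cd274, which encodes PD-L1, had a fold of 1.48 and lost its call without infarction 1 (1.20, adjusted p = 0.0687). Cd8a and Cd8b, which rat monocytes also express, were higher by 2.5 and 2.79. They belong to a list of T or NK cell markers whose 5 tested genes all rose and whose sum was 46.5, 44.0 and 135 CPM in the C1q-high cells, while Cd3 transcripts were absent by the gate.

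**Figure D5:**
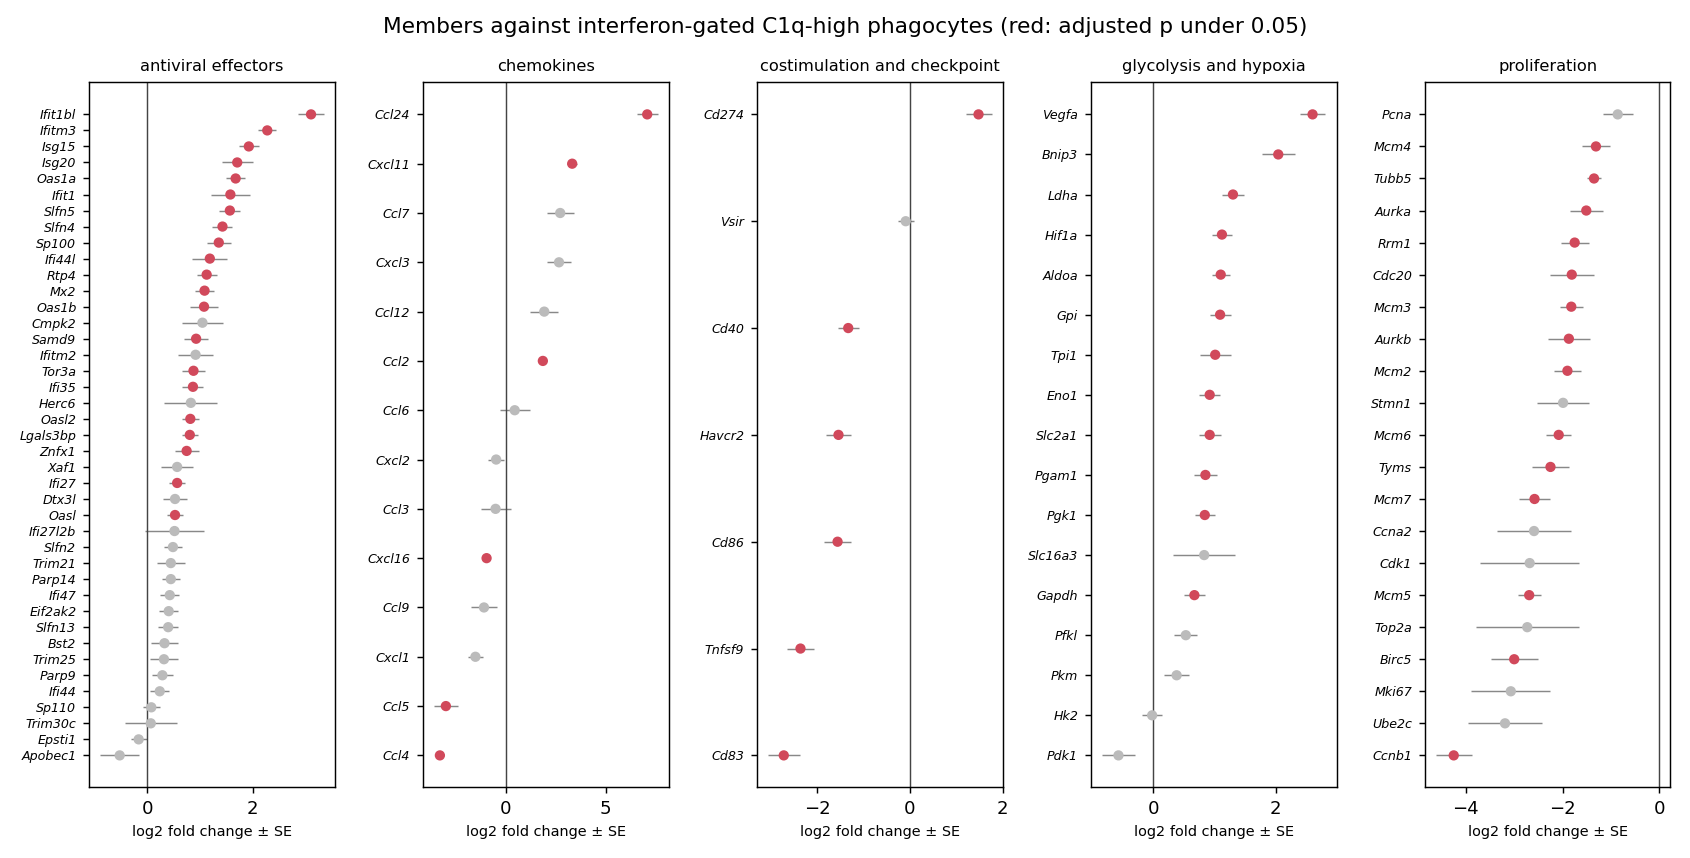
Log2 fold change (member minus interferon-gated C1q-high phagocytes) with its SE for every tested gene of 5 fixed lists, in red where the edgeR adjusted p is under 0.05. Of 41 antiviral effectors 21 are higher and none lower, of 17 glycolysis and hypoxia genes 12 are higher, and of 21 proliferation genes 14 are lower.

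The members were also compared with 350, 564 and 628 lipid-handling macrophages of the same gate, with a median depth of 15396 UMIs and neutrophil markers summing to 292, 198 and 177 CPM. They were defined as cells with 2 or fewer of the 5 genes and with Gpnmb, Fabp5 and Apoc1 but without Fcnb. The same edgeR test called 940 of 8803 genes (10.7%), 675 higher in the members (7.67%) and 265 lower (3.01%). Without infarction 1 these counts were 185 and 0, with 282 genes lower at an unadjusted p under 0.05, and without infarction 3 they were 1270 and 809. Without the library block they were 419 and 67. Interferon genes differ here through the choice of members. As a description, 41 of 44 antiviral effectors were higher, with log2 folds of 5.87 for Isg15, 5.59 for Isg20, 4.88 for Cmpk2, 4.43 for Gbp2 and 3.56 for Irf7.

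Antigen presentation genes were higher in the members, summed per library, than in lipid-handling macrophages. Of 9 MHC class II genes 6 rose and none fell, with a median log2 fold of 1.69 against -0.01 for all genes. RT1-Ba, a class II alpha chain, was at 812, 985 and 542 CPM in the members and at 211, 215 and 169 in the lipid-handling cells, without overlap (1.94 ± 0.13, adjusted p = 1.94e-06). RT1-Db1 was higher by 1.81 and RT1-Da by 1.69. These sums were carried by cluster 3, with 113 of 558 members, which held 94.7% of the members' RT1-Da UMIs and 96.2% of those of RT1-Bb. In the members outside cluster 3, RT1-Ba was at 34.0 and RT1-Db1 at 54.2 CPM. Cluster 3 was set apart by these same genes, and the lipid-handling cells were not split likewise. The remainder therefore cannot be set against them. The 3 genes passed the threshold without each library and without the neutrophil-like cluster, but with at least 4 gate genes required of members their adjusted p-values were 0.211, 0.236 and 0.231. Against all other cells of the gate, by contrast, none of 14 class II genes was higher in all 3 libraries. As a description, 13 of 18 class I genes were higher, 7 without infarction 1. RT1-S3 was at 298, 263 and 339 CPM against 30.3, 30.6 and 54.4 (log2 fold 3.00 ± 0.15). Against the rest of the gate 18 of 21 class I genes were higher in all 3 libraries, so the choice of members is part of this difference.

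Cell death, chemokine and antimicrobial genes were higher in part. Those that travel with the gate genes differ partly through the choice of members. Against the rest of the gate, 11 of 17 cell death genes were higher in all 3 libraries (median log2 difference 0.49). The same held for 11 of 18 NF-kappa-B targets (0.44) and for Cxcl16 (0.87). Of 16 genes of cell death and inflammasomes 11 rose, 4 without infarction 1, including Casp4 (2.80), Casp1 (0.99) and the necroptosis effector Mlkl (1.23). Cxcl16, a membrane-bound chemokine, was at 114, 163 and 123 CPM against 47.1, 49.4 and 49.9 (log2 fold 1.43 ± 0.14). Of 13 oxidase and killing genes 8 rose, 4 without infarction 1. Acod1, which makes itaconate, and Nos2, inducible nitric oxide synthase, had folds of 2.85 and 3.13, which were 1.53 and 1.95 without the neutrophil-like cluster. Of 18 NF-kappa-B targets 12 rose, 3 without infarction 1, with the adhesion molecule Icam1 at 1.22.

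Part of the lipid and lysosome genes were lower, with calls that depended on which libraries were used. The lipid-handling cells had been chosen by 3 genes of that kind. Of 16 other lipid-handling genes 5 fell and 1 rose, and of 19 lysosomal genes 5 fell and 1 rose, and no gene of either list passed the test without infarction 1, where no gene of any kind was called lower. Without infarction 2 no lysosomal gene fell, and without infarction 3 9 lipid-handling and 11 lysosomal genes did. The cholesterol exporter Abca1 was at 107, 82.2 and 174 CPM in the members and 194, 209 and 253 in the lipid-handling cells (-0.88 ± 0.15, adjusted p = 0.00407), and without infarction 1 the fold was the same with an adjusted p of 0.176. Trem2, a lipid receptor of phagocytes, was at 78.6, 49.8 and 139 against 161, 128 and 179 (-0.85 ± 0.18, adjusted p = 0.0188), and without infarction 1 the fold was -0.75 with an adjusted p of 0.327. Both genes were lower in the members of every library, with infarction 3 closest.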

How the data were processed

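The deposited matrices hold raw UMI counts per gene and barcode. Per the submitters' processing notes the authors used CASAVA 1.8, Cell Ranger 3.1.0 and Seurat 2.3.4, and the genome build is not given in the sources used here. The members and gene lists were chosen with earlier results of these data known.

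Barcodes under 500 UMIs, under 200 genes or over 20% mitochondrial UMIs were dropped. Counts were summed per library and population and fitted with edgeR 4.0.16 (glmQLFit, robust, TMM, filterByExpr), with the library as a block since both populations come from the same library. Benjamini-Hochberg adjustment ran over all genes tested, leaving out genes that either gate used. Cell numbers were fitted likewise with group as the term. Where sham and infarction replicates share a number, their deviations correlated at -0.04, 0.07 and -0.07, so numbers were not treated as pairs. Named genes were the 10 highest and 10 lowest called genes with at least 50 CPM and the same direction in 3 libraries, plus up to 4 genes per list with the smallest p, and genes of the gate, markers and interferon lists as a description. Members were clustered with Leiden in scanpy 1.11.5 (1500 variable genes, 20 components, 15 neighbours, resolution 0.6), and doublets were scored with Scrublet but kept. Scripts were tested on simulated data.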

Additional observations from a re-analysis of the deposited data

How the results depend on the processing

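The higher share of members after infarction kept its direction and call under other mitochondrial, doublet, C1q, S100 and gene-number limits and thinning (log2 5.60 to 6.62) and when each library was left out (5.90 to 6.63). Over cells with Tyrobp and Fcer1g it was smaller, 4.16 (edgeR adjusted p = 0.00103 over 6 classes). With a replicate block it was 6.15. Taken over the cells of the gate it was 1.32, 0.46 after thinning and 1.11 without doublets, none called. For C1q-high phagocytes the log2 fold was 1.77 after thinning and 2.05 without doublets, both no longer called.

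Against lipid-handling macrophages, genes lower in members numbered 265, 138 with DESeq2, 174 with at least 4 gate genes, 149 at a 10% mitochondrial limit, 804 with no filter on low counts and 67 with no replicate block. Genes higher numbered 675, and 419 with no replicate block. Leaving out 1 replicate gave 185 to 1270 higher and 0 to 809 lower. Against C1q-high phagocytes DESeq2 gave 518 higher and 459 lower, at least 4 gate genes 441 and 461, no replicate block 681 and 723, and leaving out 1 replicate 409 to 855 and 363 to 798. Gbp5 turned from -0.76 to 0.12 (adjusted p = 0.813) with at least 4 gate genes. Of the other values of named genes under alternatives, 135 and 98 lost their call and 66 and 52 gained one in the 2 comparisons. The causes were not tested. A planned comparison with Fcnb Vcan monocyte-like cells was not run because 1 library held 10 such cells, under the minimum of 20.

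Depth limits low transcripts such as interferon ligands, and 7 sham cells allow no description of sham members.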
